A study of Mus musculus with 4 samples.

Results

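The genes of the cytoplasmic ribosomal proteins were examined in cultured mouse tongue epithelial cells labelled as lacking Otub2, a deubiquitinase of the OTU family, and in wild-type cells. Members were the genes with an Ensembl mouse identifier whose symbol is that of a large-subunit protein (Rpl with a number, or Rplp0, Rplp1 and Rplp2) or a small-subunit protein (Rps with a number, or Rpsa), and symbols ending in ps and a number were left out. This gave 83 of 54446 genes, 51 of the large and 32 of the small subunit. Of these, 76 are the standard genes and 7 carry the symbol of a standard gene followed by l. Rpl3l, Rpl10l, Rpl39l and Rps27l are protein-coding, while Rpl6l, Rpl32l and Rps4l are annotated as processed pseudogenes in GENCODE M21. The rule missed a few proteins of the ribosome that have other symbols (among them Rps3a1, Fau and Rack1), which are given separately.

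A ribosome carries a single copy of nearly every ribosomal protein, joined to ribosomal RNA, so cells keep the messages of these genes within a fairly narrow range of one another. The small subunit reads the messenger RNA and the large subunit joins the amino acids. The messages begin with a run of pyrimidines, the terminal oligopyrimidine tract, through which the kinase complex mTORC1 and the binding protein Larp1 control their translation and stability together. Ribosomal protein messages are abundant in dividing epithelial cells.

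RNA was sequenced from 4 libraries, 2 labelled Otub2 KO (3 and 4; a systemic knockout by the genotype label) and 2 wild-type controls (1 and 2), all from C57BL/6 mice and all grown in RPMI-1640 with serum. The labels name neither the deleted part of the gene nor a purification of the cells. Nothing states that replicates are different mice or culture dishes, and all p-values rest on the spread between these libraries, which may be technical. Levels are given in CPM, the count as a part of a common total after scaling by the trimmed mean of M-values (TMM). Gene counts summed to 22719550 and 18911259 in Otub2 KO 3 and 4 and to 12185345 and 11548186 in Control 1 and 2. Otub2 itself had 272 and 495 counts in the libraries labelled Otub2 KO and 393 and 367 in the controls, or 19.0 and 23.95 CPM against 27.5 and 26.9 CPM. The message was not lost, so its level does not check the labels. The table heads these libraries OE, a common short form of overexpression, with the same numbers 3 and 4. The sample titles were followed here, and every direction below rests on them. Otub2 KO 3 stood apart: 8 markers of salivary secretory cells took 25.4% of its gene counts, against 0.0030% in Otub2 KO 4 and 0.0011% and 0.00075% in the controls. Most of that share was 1 gene, Mucl2, with 5462635 counts in Otub2 KO 3, and Prol1 had 294734. Xist, the RNA of the inactive X chromosome in female cells, had 4444 and 3287 counts in Otub2 KO 3 and 4, against 8 and 6 in the controls, and was looked up after its fold change was seen. The groups differ in this marker of sex as they do in the Otub2 label, and sex and genotype cannot be told apart in any difference given here.

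The starts of 8 members are printed to show the pyrimidine tract in members that were low in both libraries labelled Otub2 KO (Rps18, Rps6, Rps27, Rplp2), members that were lower still without a long tract at the annotated start (Rps28, Rps12), and paralogs that were not low in both (Rps27l, Rpl3l). Each is the stretch from 60 bases before to 15 bases after a start annotated by RefSeq (GRCm38.p6), 5′ to 3′. Where several starts were annotated, the start with the longest run of C or T letters was taken. Capitals mark an unbroken run of at least 8 C or T letters that reaches to within 5 bases of the start, or, where there is none, the first transcribed base. In Rps27l the run begins 12 bases before the annotated start and ends before it, so it lies outside the annotated message.
Rps18 (chr17:33955651-33955725, minus strand): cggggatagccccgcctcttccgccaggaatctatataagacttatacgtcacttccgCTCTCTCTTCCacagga
Rps6 (chr4:86857353-86857427, minus strand): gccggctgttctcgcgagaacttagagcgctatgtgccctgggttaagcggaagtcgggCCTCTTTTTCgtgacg
Rps27 (chr3:90213634-90213708, minus strand): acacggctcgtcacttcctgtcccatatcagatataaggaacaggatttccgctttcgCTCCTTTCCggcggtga
Rplp2 (chr7:141447591-141447665, plus strand): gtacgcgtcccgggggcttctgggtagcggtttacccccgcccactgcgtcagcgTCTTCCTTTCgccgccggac
Rps28 (chr17:33824548-33824622, minus strand): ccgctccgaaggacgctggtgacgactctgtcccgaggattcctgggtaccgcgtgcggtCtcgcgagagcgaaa
Rps12 (chr10:23787195-23787269, minus strand): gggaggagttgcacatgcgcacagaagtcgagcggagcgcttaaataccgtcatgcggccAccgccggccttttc
Rps27l (chr9:66946026-66946100, plus strand): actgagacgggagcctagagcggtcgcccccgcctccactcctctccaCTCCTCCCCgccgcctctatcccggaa
Rpl3l (chr17:24727766-24727840, plus strand): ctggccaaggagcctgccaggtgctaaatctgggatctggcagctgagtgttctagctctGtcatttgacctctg

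A start was annotated for 61 of the 83 members. Where a gene had several, the start with the longest C or T run was used, in members and all genes alike. The shares with a run therefore describe the most favourable start of each gene. A run of at least 8 C or T letters that reached to within 5 bases of the start was found in 24 of 61 members (39.3%), against 11.4% of 27025 genes with an annotated start. Such a run can lie wholly before the annotated start. Of 5 motifs searched on both strands, the letters CCGGAAG, found in many binding sites of ETS factors, lay in the 250 bases before the start of 17 of 61 members (27.9%), against 7.0% of all genes. The others were GGGCGG (47.5% of members and 32.5% of all genes), AAGATGGC (8.2% and 2.8%, over the whole window), TATAAA (6.6% and 12.9%) and CACGTG (6.6% and 5.9%). Members with and without these letters overlapped in how far they lay from the controls. In the 22 standard members with a run the log2 fold change had a median of -0.82 (-1.42 to -0.13), and in the 34 without one a median of -0.74 (-1.71 to -0.11). With CCGGAAG the median was -0.83 (16 members) and without it -0.74 (40 members).

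Messages of ribosomal proteins took a smaller part of both libraries labelled Otub2 KO than of both controls. The members held 2.52% and 5.34% of gene counts in Otub2 KO 3 and 4, against 9.19% and 8.01% in Control 1 and 2. Without the 8 salivary markers in the denominator, the share in Otub2 KO 3 was 3.37%. Without the 22 genes that make up the 10 most abundant of each library, none of them a member, the shares were 4.46% and 5.87% in Otub2 KO 3 and 4 and 10.6% and 9.27% in the controls. On the TMM scale the members summed to 39950 and 48840 CPM in Otub2 KO 3 and 4 and to 78320 and 67780 CPM in Control 1 and 2. The groups did not overlap on any of these scales, and Otub2 KO 3 was the lowest library on each.

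**Figure D1:**
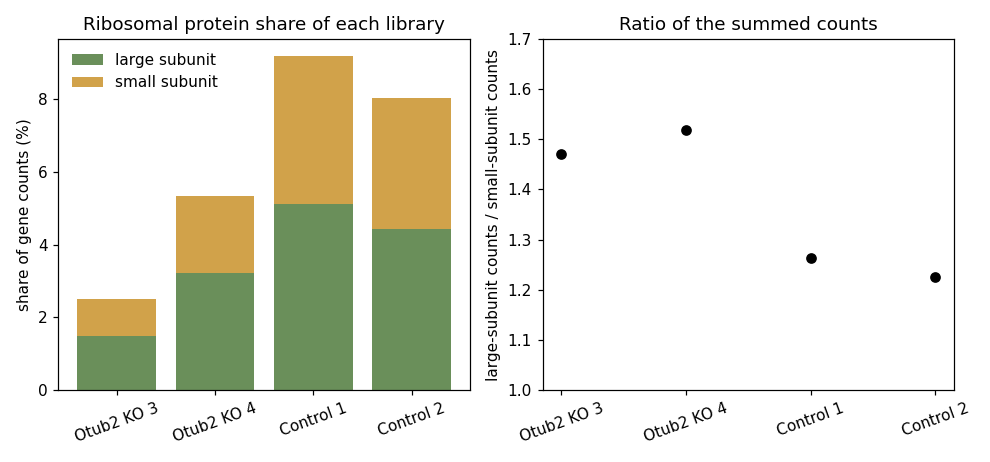
Left, share of gene counts (%) held by ribosomal protein genes in each library, stacked by subunit; right, ratio of the summed large-subunit to small-subunit counts, 1 point per library. The 2 libraries labelled Otub2 KO hold 2.52% and 5.34% and the controls 9.19% and 8.01%, while the ratio is 1.47 and 1.52 against 1.26 and 1.23.

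The share of the small subunit lay further below the controls than that of the large. Large-subunit members held 1.498% and 3.22% of gene counts in Otub2 KO 3 and 4, against 5.13% and 4.41% in the controls. Small-subunit members held 1.02% and 2.12% in Otub2 KO 3 and 4, against 4.06% and 3.60% in the controls. The ratio of large-subunit to small-subunit counts was 1.47 and 1.52 in the libraries labelled Otub2 KO and 1.26 and 1.23 in the controls, and both knockout libraries lay above both controls. No test was made of these sums.

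Markers of cell types differed between the libraries too. All 12 tongue keratinocyte markers were detected in every library, and their sum was 40370 and 50520 CPM in Otub2 KO 3 and 4, against 75150 and 69880 CPM in the controls. Of the 12, 7 lay below both controls and 0 above, where 33.1% of all genes tested lay below and 26.9% above. Krt13, a keratin of the oral lining, was at 5287 and 3954 CPM, against 11445 and 10405 CPM in the controls. The other 5 markers overlapped between the groups, and Krt5, a basal keratin named after its values were seen, was at 3712 and 8223 CPM, against 5025 and 4840 CPM in the controls. Trp63 and Epcam, also named after their values were seen, were higher in Otub2 KO 4 as well. Trp63 was at 265.5 and 526 CPM, against 312 and 347 CPM, and Epcam at 152 and 271 CPM, against 153 and 150 CPM in the controls. Over the 12 markers the median log2 difference from the control mean was -0.53 in Otub2 KO 3 and -0.41 in Otub2 KO 4. Of 8 fibroblast markers 6 lay above both controls and 0 below, summing to 721 and 486 CPM, against 155 and 202 CPM in the controls. Salivary markers (8 genes) summed to 402600 and 27.5 CPM, against 9.31 and 6.37 CPM in the controls, with Mucl2 alone at 381470 CPM in Otub2 KO 3. Endothelial markers (5 genes) summed to 228 and 61.9 CPM, against 60.2 and 49.3 CPM, skeletal muscle markers (7 genes) to 440 and 58.3 CPM, against 20.8 and 17.7 CPM, and leukocyte markers (6 genes) to 117 and 50.6 CPM, against 51.2 and 57.6 CPM. Single genes held most of the muscle and leukocyte sums in Otub2 KO 3: Ckm was at 290 CPM, Acta1 at 130 CPM and Lyz2 at 87.8 CPM. Of the skeletal muscle markers 2 lay above both controls and 1 below, and of the leukocyte markers 1 above and 3 below. Of all these markers, the salivary gene Dcpp1 alone was at 0 counts in any library, in both labelled Otub2 KO and in Control 2. In these bulk libraries fewer cells of a type and less RNA per cell cannot be told apart, and the part of cell composition in the ribosomal protein values was not tested.

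Gene by gene, no member passed edgeR's quasi-likelihood test with Benjamini-Hochberg adjustment over the 21916 genes tested at 0.05. That was true of every gene, with 0% called higher and 0% called lower, and voom called 0 as well. The smallest adjusted p was 0.162 for any gene and 0.166 for a member. Of the 81 members tested (Rpl10l and Rpl39l had too few counts), 27 had an unadjusted p under 0.05 and a lower level in the libraries labelled Otub2 KO (background 15.2% of genes), and 0 had one with a higher level (background 9.42%). DESeq2 called 7 members lower (Rps28, Rps12, Rps18, Rpl30, Rps20, Rpl37a and Rpl17, adjusted p from 0.00171 to 0.046) and 0 higher, where it called 1.2% of genes lower and 3.43% higher.

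In level, both libraries labelled Otub2 KO lay below both controls in 38 of 49 tested large-subunit members and 30 of 32 small-subunit members. They lay above both in 1 and 0. Over all genes tested 33.1% lay below and 26.9% above, and over the 1659 genes with a mean of at least 100 CPM 21.2% lay below and 35.1% above. The median log2 fold change was -0.67 in the large subunit and -0.82 in the small, against 0.09 over all genes tested and 0.25 over the 1586 other genes of at least 100 CPM. The median over all genes moved with the scaling (0.14 with RLE, -0.38 with upper-quartile factors, -0.35 with library size only, -0.22 with libraries centred on their median gene). Relative to it, the large subunit stayed between -0.75 and -0.67 and the small subunit between -0.91 and -0.87 under these scalings and TMM. With RLE, 33 large-subunit and 29 small-subunit members lay below both controls and 1 and 0 above (31.4% of genes below, 29% above). With upper-quartile factors 47 and 30 lay below and 0 above (48.5% below, 10.4% above). With library size only 41 and 31 lay below and 0 above (43% below, 9.17% above), and with centred libraries 39 and 30 below and 0 above (39.9% below, 12.8% above). Under every scaling the share of members below both controls exceeded that of all genes.

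**Figure D2:**
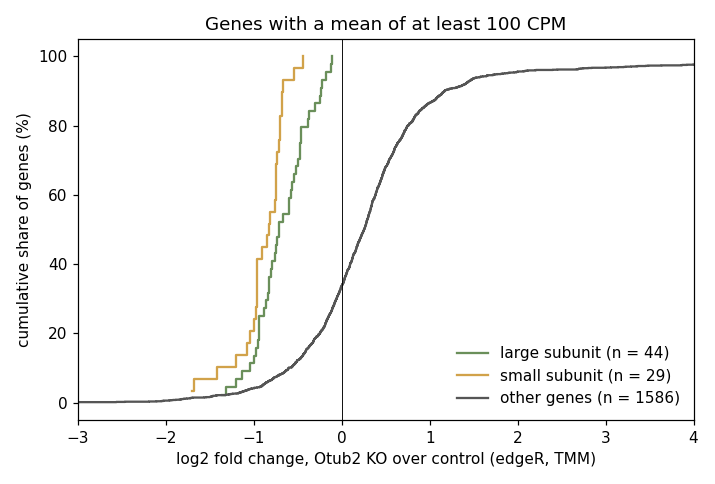
Cumulative share of genes (%) against log2 fold change, Otub2 KO over control (edgeR, TMM), for genes with a mean of at least 100 CPM; the axis is cut at -3 and 4. The curves of 44 large-subunit and 29 small-subunit genes lie left of 0, and the 1586 other genes have a median of 0.25.

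Each library labelled Otub2 KO, taken alone, had most members below the controls. The median log2 difference from the mean of the controls was -0.84 in Otub2 KO 3 and -0.45 in Otub2 KO 4 for the large subunit, and -0.95 and -0.70 for the small. The median of the gene-by-gene differences, Control 1 minus Control 2, was 0.15 in the large and 0.10 in the small subunit. Set alone against the controls by edgeR, Otub2 KO 3 was lower in 64 members (background 12.7% lower) and higher in 1 (22.4% higher). Otub2 KO 4 was lower in 37 (22% lower) and higher in 0 (18.8% higher). Both fits use the same controls, and the spread of a lone library is taken to be that of the control pair. Of the 76 standard members, 76 were below the control mean in Otub2 KO 3 and 73 in Otub2 KO 4, and 70 were lower in Otub2 KO 3 than in Otub2 KO 4.

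**Figure D3:**
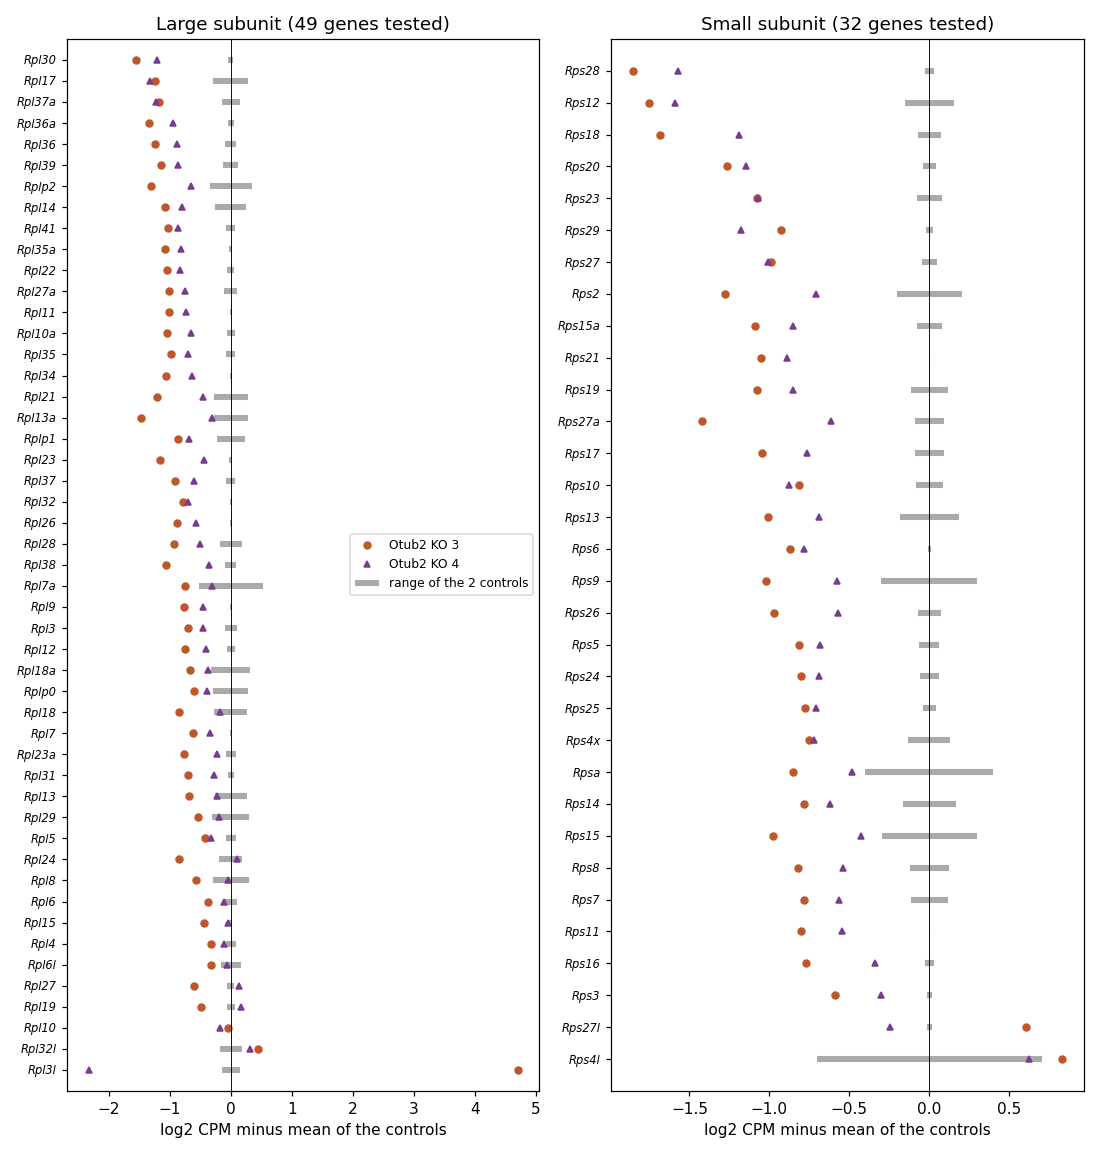
Log2 CPM minus the mean of the controls for each tested member in Otub2 KO 3 (circles) and Otub2 KO 4 (triangles), with grey bars for the range of the 2 controls, ordered by fold change. Both knockout libraries lie left of the controls in 38 of 49 large-subunit and 30 of 32 small-subunit genes; Rpl3l is the member on which the 2 knockout libraries lie farthest apart.

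Among small-subunit proteins, Rps28 and Rps12 had the most negative log2 fold changes. Rps28 (ENSMUSG00000067288, GRCm38 chromosome 17, 33819027 to 33824562, minus strand) was at 194 and 236 CPM in Otub2 KO 3 and 4, against 716 and 688 CPM in Control 1 and 2. With 2 libraries in each group, edgeR gave a log2 fold change of -1.71 and a standard error (SE) of 0.297, a 95% interval of -2.46 to -0.95 and an adjusted p of 0.166. Rps12 (ENSMUSG00000061983, chromosome 10, 23785183 to 23787275, minus strand) was at 399 and 445 CPM in Otub2 KO 3 and 4, against 1493 and 1208 CPM in the controls (a log2 fold change of -1.68, SE 0.330, edgeR adjusted p = 0.166). Rps12 takes part in cell competition in Drosophila, where cells with a reduced ribosomal gene dose are removed. In both genes the 2 libraries labelled Otub2 KO lay close together and far below the controls.

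Rps18, Rps20 and Rps23 followed. Rps18 was at 579 and 816 CPM in Otub2 KO 3 and 4, against 1959 and 1773 CPM in the controls (a log2 fold change of -1.42, SE 0.368). Rps20 was at 524 and 569 CPM, against 1296 and 1228 CPM in the controls (-1.21, SE 0.311). Rps23, a protein of the decoding centre, was at 696 and 702 CPM, against 1555 and 1395 CPM in the controls (-1.08, SE 0.322). Their edgeR adjusted p ran from 0.166 to 0.170, and none of the 3 genes overlapped between the groups.

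Small-subunit proteins known from signalling and human disease lay below the controls too, by smaller amounts. Rps6, the substrate of the S6 kinases, was at 913 and 971 CPM in Otub2 KO 3 and 4, against 1682 and 1656 CPM in the controls (a log2 fold change of -0.83, SE 0.329). Rps19, the gene most often mutated in human Diamond-Blackfan anaemia, was at 412 and 482 CPM, against 943 and 805 CPM in the controls (-0.97, SE 0.309). Rps14, whose loss contributes to the human 5q deletion syndrome, was at 807 and 902 CPM, against 1556 and 1237 CPM in the controls (-0.71, SE 0.338). The groups were apart in each, with edgeR adjusted p of 0.205, 0.174 and 0.250.

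The messages of Rpsa, Rps2 and Rps15 varied more between the controls. Rpsa, also known as a laminin receptor, was at 1170.0 and 1513 CPM in Otub2 KO 3 and 4, against 2788 and 1601 CPM in the controls (a log2 fold change of -0.71, SE 0.442, edgeR adjusted p = 0.340). Otub2 KO 4 and Control 2 were close, so the separation of the groups is narrow. Rps2 was at 1088 and 1615 CPM, against 3035 and 2289 CPM in the controls (-0.98, SE 0.419). Rps2 and Rps15 are, with Rplp1 and others, among the members of highest deposited FPKM. Rps15 was at 443 and 650 CPM, against 1074 and 711 CPM in the controls (-0.71, SE 0.388). Control 1 exceeded Control 2 in Rpsa, Rps2 and Rps15.

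The remaining landmarks of the small subunit were nearer to the controls or close to the median. Rps3, a protein of the mRNA entry channel that also acts in DNA repair, had the smallest difference of the standard small-subunit members, at 985 and 1201 CPM against 1501 and 1468 CPM in the controls (-0.44, SE 0.338). Rps4x, encoded on chromosome X, was at 1018 and 1044 CPM, against 1569 and 1882 CPM in the controls (-0.74, SE 0.341).

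In the large subunit, Rpl30 and Rpl17 had the most negative log2 fold changes of the tested members. Rpl30 (ENSMUSG00000058600, chromosome 15, 34440505 to 34443640, minus strand) was at 207 and 264 CPM in Otub2 KO 3 and 4, against 592 and 623 CPM in the controls (a log2 fold change of -1.37, SE 0.298, edgeR adjusted p = 0.166). Rpl17 (ENSMUSG00000062328, chromosome 18, 74998558 to 75003381, plus strand), which lines the peptide exit tunnel, was at 190.0 and 179.6 CPM, against 549 and 369 CPM in the controls (-1.31, SE 0.323). Rpl37a was at 328 and 318 CPM, against 820.0 and 671 CPM in the controls (-1.21, SE 0.299). In these genes each library labelled Otub2 KO lay far below the lower control. Rpl36a was at 169 and 223 CPM, against 445 and 414 CPM in the controls (-1.13, SE 0.294), and Rpl36 at 250.2 and 320.3 CPM, against 628 and 553 CPM in the controls (-1.05, SE 0.303). The groups did not overlap in these 5 genes.

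The 3 proteins of the stalk, which recruits translation factors to the large subunit, were lower in the libraries labelled Otub2 KO. Rplp1 had the highest deposited level per length of all members, at 1352 and 2666 FPKM (the count scaled by gene length and column total) in Otub2 KO 3 and 4, against 5292 and 3891 FPKM in the controls. On the TMM scale Rplp1 was at 1084 and 1229 CPM, against 2318 and 1690 CPM in the controls (a log2 fold change of -0.79, SE 0.373). Rplp0, the stalk base and a common reference gene in quantitative PCR, was at 1747 and 2043 CPM, against 3243 and 2189 CPM in the controls (-0.52, SE 0.412). Rplp2 was at 331 and 519 CPM, against 1031 and 643 CPM in the controls (-0.98, SE 0.413). The 2 controls differed clearly in all 3 genes, Control 1 being the higher, and Rplp0 in Otub2 KO 4 lay just under Control 2.

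Rpl5 and Rpl11, which carry the small ribosomal RNA of the large subunit and, when free, bind the p53 ligase Mdm2, were unequal. Rpl11 was at 615 and 742 CPM in Otub2 KO 3 and 4, against 1247 and 1220 CPM in the controls (a log2 fold change of -0.86, SE 0.321). Rpl5 was at 897 and 955 CPM, against 1135 and 1265 CPM in the controls (-0.37, SE 0.318, 95% interval -1.18 to 0.44). Rpl23, another protein that binds Mdm2, was at 405 and 665 CPM, against 917 and 890 CPM in the controls (-0.76, SE 0.369). The groups were apart in all 3, and the edgeR adjusted p was 0.194, 0.467 and 0.257.

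The large-subunit members nearest to the controls were Rpl10, Rpl19 and Rpl27. Rpl10, encoded on chromosome X and added late in assembly of the subunit, was at 1005 and 922 CPM in Otub2 KO 3 and 4, against 1023 and 1062 CPM in the controls (a log2 fold change of -0.11 with a 95% interval of -0.91 to 0.68). Rpl19 was at 518 and 816 CPM, against 763 and 694 CPM in the controls (-0.13, SE 0.358), and Rpl27 at 306 and 510.3 CPM, against 445 and 482 CPM in the controls (-0.18, SE 0.357). For Rpl19 and Rpl27, Otub2 KO 4 was the highest library and Otub2 KO 3 the lowest. Rpl4 was at 1564 and 1809 CPM, against 2076 and 1857 CPM in the controls. In all, 10 tested large-subunit members overlapped between the groups (Rpl3l, Rpl6l, Rpl7a, Rpl8, Rpl13, Rpl18, Rpl19, Rpl24, Rpl27 and Rpl29), and 2 of the small subunit (Rps4l and Rps27l). Other than Rpl10, Rpl3l, Rpl6l, Rps4l and Rps27l, these genes were named after their values were seen.

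The difference from the controls varied with coding length. The coding sequence (the longest annotated for each gene in GENCODE M21) ran from 138 to 1257 nucleotides over the 75 standard members with a mean of at least 5 CPM. The median log2 fold change was -0.996 in the 9 members under 300 nucleotides and -0.59 in the 22 members of at least 600 nucleotides. In between, 26 members of 300 to 450 nucleotides had a median of -0.83 and 18 of 450 to 600 nucleotides of -0.69. At 600 nucleotides and above, the large subunit had a median of -0.47 and the small subunit of -0.75. At 450 to 600 nucleotides the medians were -0.56 and -0.83. At 300 to 450 nucleotides both subunits had a median of -0.83, and under 300 nucleotides the medians were -0.943 (5 large-subunit members) and -1.025 (4 small-subunit members). The subunits thus differed mainly among the longer members. Across the 75 genes the log2 fold change and coding length correlated with a Spearman coefficient of 0.54 and Pearson's r = 0.49 (log2 length), a description of genes that share their 4 libraries. The Spearman coefficient was 0.51 for Otub2 KO 3 and 0.52 for Otub2 KO 4 against the control mean, and 0.25 for Control 1 minus Control 2. In the large subunit these 3 values were 0.61, 0.59 and 0.25. In the small subunit they were 0.27, 0.44 and 0.27, so there Otub2 KO 3 did not exceed the difference between the controls. With mRNA length in place of coding length, the coefficient for the log2 fold change over the 75 genes was 0.41. Other genes of at least 100 CPM, of all coding lengths, had a Spearman coefficient of 0.25 and r = 0.053 (n = 1555). In the 692 of them under 1300 nucleotides, nearer the range of the members, these were 0.17 and -0.038. The median was -0.07 in 42 other genes under 300 nucleotides and 0.29 in 1342 of at least 600. In every length class the members' median was below that of the other genes. For those other genes Control 1 minus Control 2 gave a Spearman coefficient of -0.36, so the libraries differed by length within a group as well, and the part of such differences in the members' values was not tested.

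**Figure D4:**
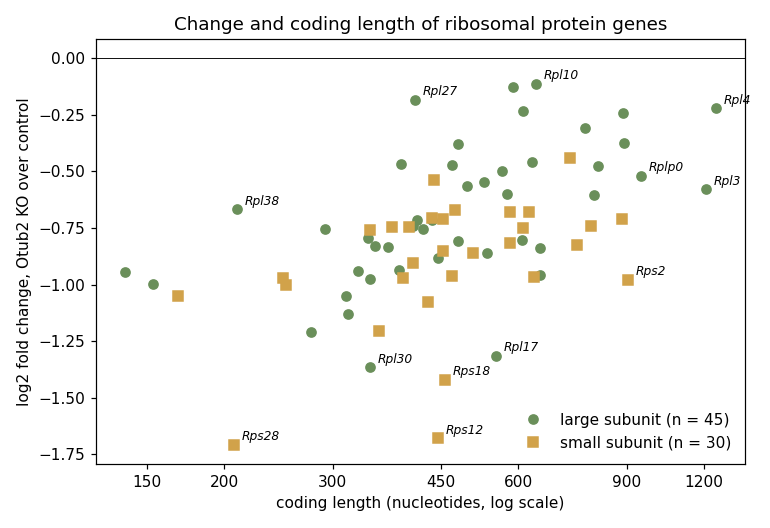
Log2 fold change, Otub2 KO over control (edgeR, TMM), against coding length in nucleotides (log scale) for 75 standard ribosomal protein genes, 1 point per gene. The points rise to the right (Spearman coefficient 0.54), Rps28, Rps12, Rps18 and Rpl30 lie lowest, and all points are below 0.

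The paralogs named after a standard gene varied among themselves. Rpl3l, which replaces Rpl3 in the ribosomes of heart and skeletal muscle, was at 73.5 CPM in Otub2 KO 3 and 0.436 CPM in Otub2 KO 4, against 3.01 and 2.42 CPM in the controls (1053 and 9 counts, against 43 and 33). Its log2 fold change of 3.76 (SE 1.94, 95% interval -1.18 to 8.70) comes from 1 library, and without Otub2 KO 3 it was -2.59 (edgeR adjusted p = 2.91e-06). Rpl3 itself was at 880 and 1046 CPM, against 1536 and 1343 CPM in the controls (-0.58, SE 0.336). The sum of 8 cardiac markers varied in the same way across the libraries, at 16810 CPM in Otub2 KO 3 and 34.3 CPM in Otub2 KO 4, against 57.7 and 56.3 CPM in the controls. In Otub2 KO 3 Myh6, the cardiac myosin heavy chain, was at 9390 CPM. Over the tested cardiac genes the median log2 difference from the control mean was 6.49 in that library. Myl7 and Myl4, named after their values were seen, stayed near the controls in Otub2 KO 3. Myl7 was at 2.23 CPM, against 2.10 and 2.64 CPM, and Myl4 at 5.59 CPM, against 4.90 and 3.74 CPM.

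Rps27l, whose human counterpart is a p53 target, was at 116 and 64.5 CPM in Otub2 KO 3 and 4, against 75.6 and 77.1 CPM in the controls (a log2 fold change of 0.24, SE 0.350). One library labelled Otub2 KO lay above the controls and one below, and the fitted sign turned under upper-quartile, library-size and median scaling. Its close relative Rps27 was at 170.0 and 168 CPM, against 349 and 328 CPM in the controls (-1.001, SE 0.259). Rps27l stood closer to Rps27 in Otub2 KO 3 than in any other library.

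The other paralogs were scarce or lay near the controls. Rpl6l was at 68.4 and 82.5 CPM in Otub2 KO 3 and 4, against 95.9 and 76.8 CPM in the controls, and Rpl6 at 943 and 1127 CPM, against 1305 and 1144 CPM in the controls. The log2 fold changes of the pair were alike, -0.19 (SE 0.266) for Rpl6l and -0.24 (SE 0.332) for Rpl6. Rps4l was at 7.12 and 6.15 CPM, against 2.38 and 6.52 CPM in the controls. Rpl32l was at 1.54 and 1.40 CPM, against 1.26 and 0.952 CPM, and was the only tested member above both controls; its parent Rpl32 was at 549 and 586 CPM, against 939 and 957 CPM. Rpl10l, a germ-line form of Rpl10, had 2 and 3 counts in Otub2 KO 3 and 4, against 2 and 10 in the controls. Rpl39l, a testis form of Rpl39, had 1 and 2 counts, against 4 and 8, too few for the test. Rpl32l had only 22 and 29 counts in Otub2 KO 3 and 4, against 18 and 13 in the controls. It lies wholly within Map7 on the same strand, which had 878 and 1469 counts, against 588 and 687. Whether reads of Map7 were counted at Rpl32l, or reads of parent genes at Rpl6l, Rpl32l and Rps4l, was not tested.

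**Figure D5:**
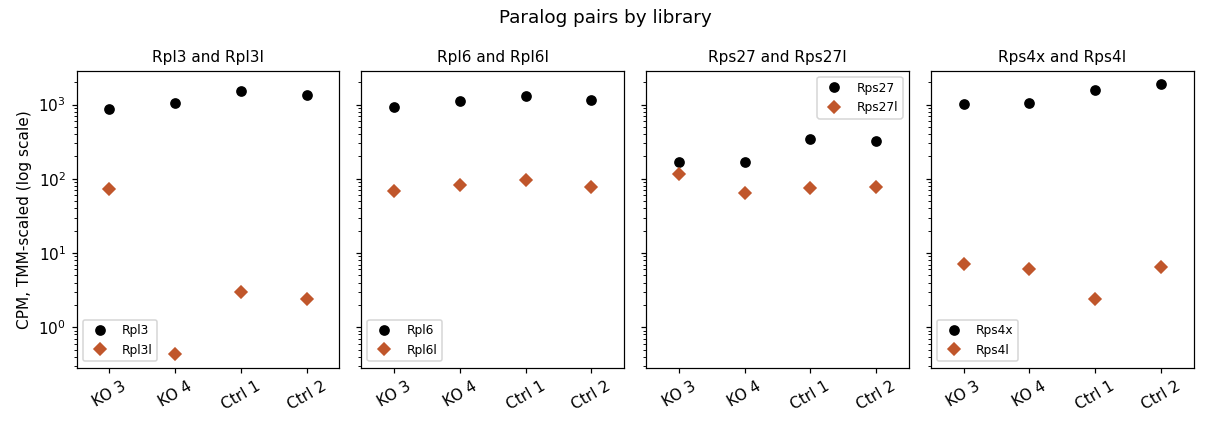
TMM-scaled CPM (log scale) of 4 standard genes (black circles) and their paralogs (orange diamonds) in each library, Otub2 KO 3 and 4 left of Control 1 and 2. Rpl3l is at 73.5 CPM in Otub2 KO 3 and 0.436 CPM in Otub2 KO 4, and Rps27l at 116 and 64.5 CPM, while Rpl3 and Rps27 are below the controls in both.

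Among the standard genes, Rpl24, Rps10 and Rpl13a had the fewest counts, and Rpl24 and Rps10 are named here for that reason. Rpl24 had 14 and 41 counts in Otub2 KO 3 and 4, against 23 and 29 in the controls. Rps10 had 138 and 191, against 259 and 220, and Rpl13a 269 and 872, against 904 and 589. Each overlaps another annotated gene on the same strand over most of its span (Gm28037 over 98.7% of Rpl24, Gm45713 over 88.6% of Rpl13a and RPS10-NUDT3 over 76.9% of Rps10), and those partners had 0 counts in every library. Rpl13 is spanned wholly by Gm20388 and yet had 12438 and 24590 counts, against 23855 and 15850. The pseudogene Rps10-ps2 held 1473 and 2562 counts, against 3252 and 2204, more than Rps10 itself. Whether overlap and copies lowered the counts of Rpl24, Rps10 and Rpl13a was not tested.

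Pseudogene copies with a symbol ending in ps and a number held few counts beside the members in every library. The 297 ribosomal protein pseudogenes found by such a symbol held counts equal to 3.56% and 3.47% of the members' counts in Otub2 KO 3 and 4, and to 3.33% and 3.37% in the controls. Copies under other symbols were not counted. Of 105 pseudogenes tested, 61 lay below both controls in both libraries labelled Otub2 KO and 12 above, with a median log2 fold change of -0.53. That was 58.1% below and 11.4% above, against 33.1% and 26.9% of all genes tested.

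Ribosomal proteins outside the symbol rule had values of the same kind. Of 6 such genes 5 lay below both controls in both libraries labelled Otub2 KO and 0 above (median log2 fold change -0.82). Of all genes tested, 33.1% lay below and 26.9% above. Rps3a1 was at 1091 and 1195 CPM in Otub2 KO 3 and 4, against 2333 and 1950.2 CPM in the controls, and Fau, which encodes a small-subunit protein fused to a ubiquitin-like domain, at 366 and 422 CPM, against 785 and 528 CPM. Rpl22l1, the paralog that Rpl22 represses, was at 37.5 and 44.5 CPM, against 88.5 and 96.5 CPM in the controls (-1.17, SE 0.251). Rpl22 was lower as well, at 265 and 307 CPM, against 569 and 526 CPM in the controls (-0.94, SE 0.283). No gene of this list passed the edgeR test.

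Other messages with a pyrimidine tract were lower in part. Of 14 elongation, initiation and related genes 7 lay below both controls and 2 above (median log2 fold change -0.22). Of all genes with a mean of at least 100 CPM, 21.2% lay below and 35.1% above. The elongation factor subunit Eef1b2 was at 424 and 512 CPM in Otub2 KO 3 and 4, against 1086 and 848 CPM in the controls (-1.05, SE 0.328), and the initiation factor subunit Eif3f at 128 and 181 CPM, against 298 and 265 CPM (-0.86, SE 0.300). Of 16 genes of mTORC1 and of its control of these messages 1 lay below and 9 above (median 0.55, and 0.052 to 0.59 over the 5 scalings). All 16 had a mean of at least 5 CPM, and over the 11788 genes tested at that level 12% lay below and 42.7% above, with a median of 0.41, so the list lay near its background. Mtor, the kinase itself, was at 72.5 and 66.4 CPM, against 36.2 and 42.8 CPM in the controls (0.81, SE 0.252), and Rps6kb1, an S6 kinase, at 87.2 and 110.2 CPM, against 50.7 and 60.4 CPM (0.83, SE 0.268). No gene of either list passed the edgeR test.

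Genes that build ribosomes, all with a mean of at least 5 CPM, had medians between that of the ribosomal proteins and the 0.41 of the genes tested at that level. Of the genes tested at that level, 12% lay below both controls in both libraries labelled Otub2 KO and 42.7% above. Of 44 assembly factors of the large subunit 2 lay below both controls in both libraries labelled Otub2 KO and 10 above (median log2 fold change 0.14), and of 34 of the small subunit 4 lay below and 12 above (0.20). Of 18 genes of RNA polymerase I and its factors 5 lay below and 5 above (0.07), and of 11 genes of the RNA-guided modification particles 1 below and 2 above (0.19). The sign of these 4 medians turned with upper-quartile factors, library size only and centred libraries, as did that of all genes (large-subunit factors -0.32, -0.25 and -0.12). On these lists the libraries labelled Otub2 KO lay apart. For the large-subunit factors the median difference from the control mean was -0.13 in Otub2 KO 3 and 0.29 in Otub2 KO 4, and for the small-subunit factors -0.06 and 0.51. For RNA polymerase I it was -0.15 and 0.24, and for the modification particles -0.41 and 0.67. The assembly factor Bop1 was at 59.3 and 86.2 CPM, against 47.2 and 51.5 CPM in the controls (0.56, SE 0.290). The polymerase subunit Polr1c was at 39.7 and 55.4 CPM, against 93.2 and 70.2 CPM in the controls (-0.78, SE 0.305). Of 8 genes that escort free ribosomal proteins or link them to p53, 2 lay below and 3 above (0.04). Mdm2 lay above, at 67.6 and 81.0 CPM, against 50.6 and 45.2 CPM in the controls. Cdkn1a lay below, at 139.9 and 197 CPM, against 285 and 276 CPM in the controls.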

How the data were processed

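RNA was sequenced in 4 libraries of tongue-derived epithelial cells, 2 labelled Otub2 KO and 2 wild type. The authors deposited whole-number read counts per gene and library, per the file headers. Their deposited FPKM is the same count scaled by gene length and column total. The submitters' processing notes list HISAT2, DESeq and GRCh38 without saying what each did, although GRCh38 is human and the identifiers are from mouse. How reads were counted (tool, strand, multi-mapping reads) is not given in the sources used here, so members with near-identical copies or overlapping genes are uncertain. All 83 members were placed by identifier in GENCODE M21 (GRCm38).

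The 14785 features without an identifier (0.914% to 2.84% of counts) were left out, leaving 11548186 to 22719550 gene counts per library. The main test was edgeR 4.0.16 (R 4.3.3, quasi-likelihood, TMM, filterByExpr), with Benjamini-Hochberg adjustment over all genes tested. Standard errors and 95% intervals derive from its F statistic. Log2 CPM of single libraries had a prior count of 2. DESeq2 1.42.0 and voom (limma 3.58.1) were alternatives, and the fits were tested on simulated data. Members and lists were chosen with earlier results of these data known. Named members were the 5 per subunit with the largest change at a mean of at least 5 CPM, the 3 per subunit with the highest FPKM, paralogs with their parents, and set landmarks such as Rplp0, Rpl5 and Rps6. Comparison lists gave up to 4 genes each, by smallest p. Genes named after their values were seen are said to be so. Results for 1 further gene are not reported here.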

Additional observations from a re-analysis of the deposited data

How the results depend on the processing

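No paired analysis was possible because the replicate numbers of the groups (3 and 4 against 1 and 2) are not shared. The median log2 fold change of both subunits was negative under every alternative run: another size factor, another filter, DESeq2, voom, features without an identifier kept and each library left out. It was -1.13 (large) and -1.29 (small) with upper-quartile factors, -1.02 and -1.23 with library size only, -1.04 and -1.15 with genes of at least 5 CPM, -1.10 for the small subunit with libraries centred on the median gene and, nearer to 0, -0.41 and -0.56 with features without an identifier kept. Leaving out 1 library gave -0.89 to -0.43 for the large and -0.96 to -0.68 for the small subunit, nearest to 0 without Otub2 KO 3. Members below both controls numbered from 26 to 47 in the large and from 28 to 31 in the small subunit. Members above both controls in the large subunit numbered 0 with upper-quartile factors, library size only, centred libraries and the 5 CPM filter, and 2 with features without an identifier kept. In the small subunit they numbered 1 with no low-count filter and 2 with those features kept. Leaving out 1 library gave 1 to 3 and 0 to 2.

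The number of calls depended on the test. Over all genes, 37 higher and 1433 lower were called with library size only, 6 and 3 with no low-count filter, and 751 and 262 by DESeq2, which called 3 large-subunit and 4 small-subunit members. Leaving out 1 library gave 0 to 5243 genes higher, 0 to 5097 lower, 0 to 36 large-subunit members and 0 to 29 small-subunit members; the high counts came without Otub2 KO 3 or without Otub2 KO 4, where the spread of the lone library is taken from the control pair. The cause of these differences was not tested. Among 37 named members and 13 alternatives, 411 of 480 values kept their direction and their side of the threshold, 57 passed it and 12 changed sign. The sign changed for Rpl3l without Otub2 KO 3 (-2.59, against 4.75 without Otub2 KO 4), for Rpl32l with upper-quartile factors (-0.062) and library size only (-0.052), for Rpl6l (0.065), Rpl6 (0.016) and Rpl10 (0.14) with features without an identifier kept, and for Rpl10 with no low-count filter (0.014). Rps27l turned to -0.23 with upper-quartile factors, -0.31 with library size only, -0.15 with centred libraries, -0.076 with the 5 CPM filter and -0.22 without Otub2 KO 3, against 0.599 without Otub2 KO 4. The log2 ratio of the members' mean share was -1.13, and with 3 denominators added after the data were seen it was -0.98 (without salivary markers), -0.95 (without the most abundant genes) and -0.72 (TMM-scaled library).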
